A study of Oryctolagus cuniculus with 4 samples.

Results

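Genes that take up, activate, build, store and burn fatty acids were examined in rabbit ear hypertrophic scar (HS) tissue with and without drug-loaded microneedles (MNs). A rule on gene symbols chose them. It took every gene of the deposited table whose symbol began with a listed family name such as ELOVL, ACSL, FABP, ACAD or HADH, or matched single symbols such as CD36, LPL and MFSD2A. It found 53 of 13913 genes. 7 of these were GPATCH genes, which share only the letters GPAT with the glycerol-phosphate acyltransferases and encode G-patch proteins, a class of RNA-handling proteins. They were set apart, and the other 46 are the members described here.

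Single-cell RNA sequencing libraries had been made from the ventral epidermis and dermis of scars on the ears of female rabbits labelled WT, 10 to 12 weeks old when obtained. The strain was not given. The HS group, of 2 libraries, had scars left untreated. The drug-loaded MNs group, also of 2 libraries, had scars that received, weekly for 3 weeks, a microneedle patch that leaves its tips behind in the scar, loaded with a peptide prodrug of a 5-fluorouracil derivative. All tissues came from the same wound model and were harvested on day 43 after resection. No library of scars given drug-free needles was analysed here, so the needles and the drug cannot be told apart. Each library came from 1 scar tissue, and although the samples were described as biologically independent, which rabbits they came from was not given, so p-values measure only the spread between these tissues.

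The table held 1 value per gene and library, averaged or summed over cells in a way that was not stated. Values were rescaled so that each library summed to 1000000, and are called relative expression in ppm, 1 ppm being 1 part in 1000000 of a library. Sequencing depth was unknown. Fewer cells of a type and less RNA per cell cannot be told apart in such values. Keratinocyte and fibroblast genes were present in every library. The 4 suprabasal keratinocyte markers in the table took 3.14% to 5.23% of a library, with overlap between the groups. The 6 fibroblast markers took 2.30% and 2.25% of the HS libraries but 4.47% and 4.86% of the drug-loaded MNs libraries. The 8 macrophage markers summed to 90.6 and 105 ppm in HS and to 222 and 219 ppm in drug-loaded MNs. The part of these shifts in the results below was not tested.

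Fatty acids enter cells through transporters or after lipoprotein triglyceride has been split outside the cell, are carried in the cytoplasm by fatty acid-binding proteins, and are activated to acyl-CoA before any further use. Acyl-CoA is then elongated, desaturated, built into glycerolipids and stored in droplets, or moved into mitochondria and peroxisomes and shortened by beta-oxidation. In skin this chemistry supplies the very long acyl chains of the epidermal barrier and the oils of sebaceous glands, while macrophages and capillary endothelium take up fatty acids from their surroundings.

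Expression was compared between the groups with limma, fitted to log2(ppm + 1) over all 9348 genes with a mean of at least 1 ppm, and p-values were adjusted by the Benjamini-Hochberg method over all of them. Fold changes are on that log2 scale, where the added 1 ppm makes changes of low genes look smaller. Of the 46 members, 36 passed the filter on low values. ELOVL2 did so through drug-loaded MNs and ACOX2 through HS, each having a group mean under 1 ppm in the other group.

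0 of the 36 members passed an adjusted p of 0.05 in limma, where 0.0428% of all tested genes did. At an unadjusted p under 0.05 there were 3, where 8.65% of all tested genes had such a p. MFSD2A was lower in drug-loaded MNs, as were 1.39% of all tested genes at that p. FABP7 and CD36 were higher, 5.56% of the members, where 7.26% of all tested genes were higher at that p.

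18 of the 36 members had groups that did not overlap, where 37.8% of all tested genes did not overlap. 13 of these were higher in drug-loaded MNs (36.1% of the members, against 26.6% of all tested genes) and 5 were lower (13.9%, against 11.2%). ELOVL2 among the 13 and ACOX2 among the 5 had passed the filter only through the group where they are high. The log2 fold change was above 0 in 23 members, or 63.9%, where 64.6% of all tested genes were above 0. Its median was 0.19 over the members and 0.12 over all tested genes. That order turned when HS replicate 2 was left out, to 0.10 over the members and 0.19 over all tested genes, and the medians were 0.061 and 0.063 without drug-loaded MNs replicate 1. Single genes are to be read against this shift of all genes. With median ratio scaling the medians were 0.045 for the members and -0.011 for all tested genes, and with quantile normalization they were 0.019 and -0.020.

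**Figure D1:**
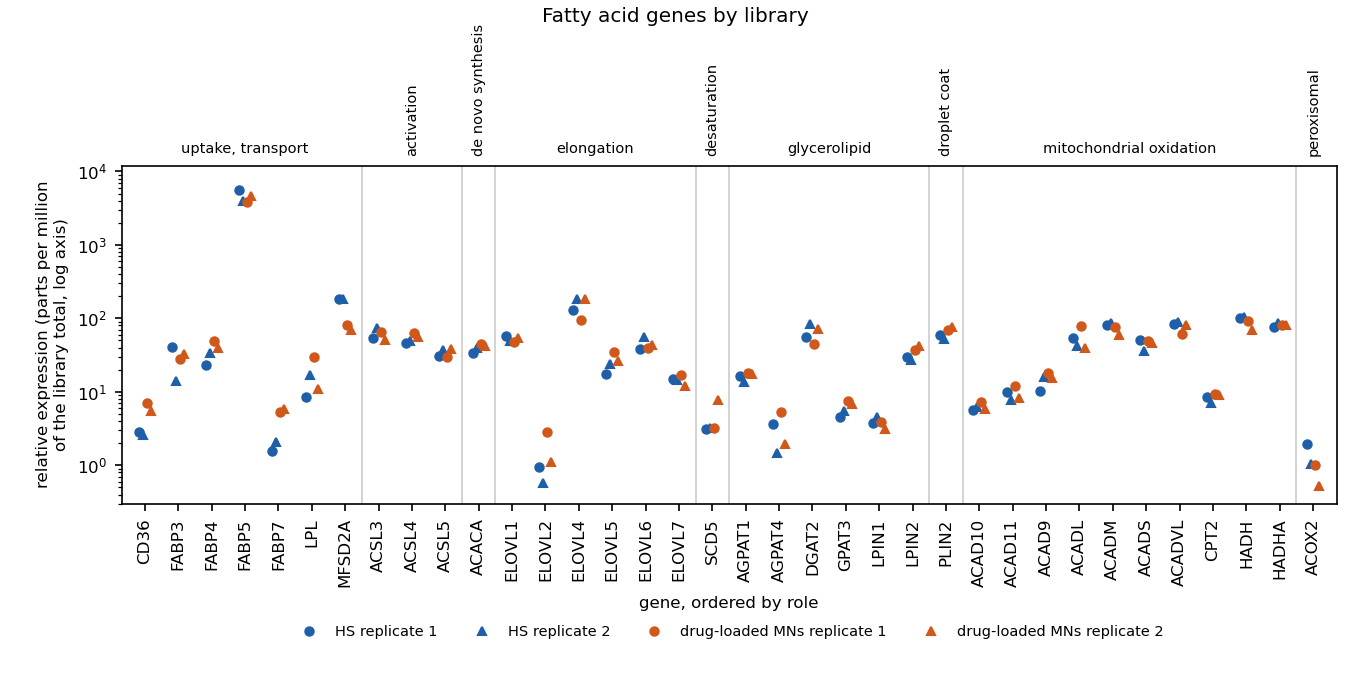
Relative expression of the 36 tested fatty acid genes in each library, in ppm of the library total on a log axis, with genes ordered by role. Blue symbols are HS and orange symbols drug-loaded MNs, with circles for replicate 1 and triangles for replicate 2. The groups are clearly apart for MFSD2A, FABP7 and CD36 and lie close together or overlap for most others, and FABP5 is listed between 3813 and 5514 ppm in all libraries.

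**Figure D2:**
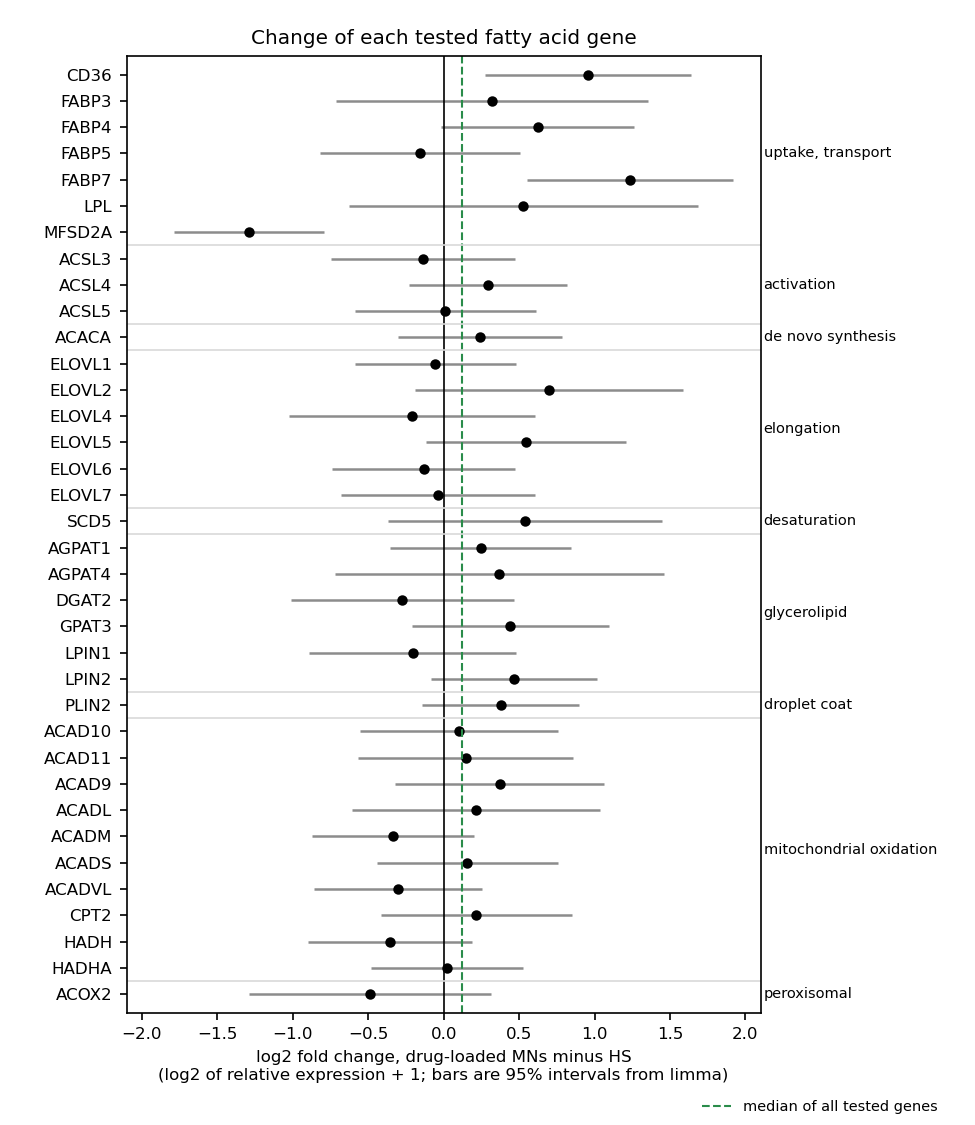
Log2 fold change of drug-loaded MNs minus HS for each of the 36 tested fatty acid genes, with 95% intervals from limma (n = 2 libraries per group) on the log2(ppm + 1) scale. The dashed line marks the median of all tested genes, 0.12, and the intervals of MFSD2A, FABP7 and CD36 alone leave out 0.

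The uptake and transport genes held all 3 of these. MFSD2A encodes a membrane transporter that carries lysophosphatidylcholine, and with it long polyunsaturated fatty acids, into cells. It stood at 186 and 182 ppm in the HS libraries and at 80.0 and 69.9 ppm in the drug-loaded MNs libraries. Both HS libraries were more than double either drug-loaded MNs library, and the replicates lay close together. The means were 184 ± 2.82 and 74.9 ± 7.14 ppm (SD, n = 2 each), 2.46-fold lower in drug-loaded MNs, with a log2 fold change of -1.29 (SE 0.21, 95% interval -1.79 to -0.79, limma unadjusted p 0.000408, adjusted p 0.257). With any 1 library left out, the log2 fold change stayed between -1.38 and -1.19. It was negative in all 14 alternative settings.

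FABP7, a fatty acid-binding protein best known from glia and neural progenitors, was listed at 1.55 and 2.09 ppm in HS and at 5.39 and 5.84 ppm in drug-loaded MNs. Each drug-loaded MNs library was above both HS libraries, at low levels throughout. The means differed 3.08-fold, and the log2 fold change was 1.24 (SE 0.29, 95% interval 0.55 to 1.92, limma unadjusted p 0.00343, adjusted p 0.314). 4 Schwann cell markers in the table all had log2 fold changes above 0, with a median of 0.58, but the groups overlapped in each. They summed to 420 and 35.0 ppm in HS and to 234 and 112 ppm in drug-loaded MNs. The part of Schwann cells in the FABP7 values was not tested.

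CD36 encodes a scavenger receptor that binds oxidized lipoproteins and long-chain fatty acids on macrophages, capillary endothelium and fat cells. It was listed at 2.83 and 2.61 ppm in HS and at 7.05 and 5.48 ppm in drug-loaded MNs, so the groups did not overlap. The means differed 2.30-fold, with a log2 fold change of 0.96 (SE 0.29, 95% interval 0.28 to 1.64, limma unadjusted p 0.0122, adjusted p 0.404). Macrophage markers moved in the same direction: all 7 tested ones were higher after treatment at an unadjusted p under 0.05, as were 7.26% of all tested genes, and the median of their log2 fold changes was 1.16. C1QB, 1 of the 7, passed the filter on low values through drug-loaded MNs only, and MARCO did not pass it. For CD163, the libraries were at 10.6 and 6.72 ppm in HS and at 23.6 and 24.5 ppm in drug-loaded MNs. The 6 blood endothelial markers summed to 201 and 206 ppm in HS and to 156 and 211 ppm in drug-loaded MNs, so their sums overlapped. They differed among themselves. VWF was the largest part of these sums and lower in both drug-loaded MNs libraries, at 149 and 128 ppm in HS against 83.1 and 114 ppm. CDH5, an endothelial cadherin, was at 2.76 and 4.30 ppm in HS and at 6.42 and 8.58 ppm in drug-loaded MNs. PECAM1 was also higher without overlap, at 19.5 and 29.0 ppm in HS and at 29.4 and 41.6 ppm in drug-loaded MNs. KDR, TEK and EMCN overlapped between the groups. The part of macrophages and endothelium in the CD36 values was not tested.

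**Figure D3:**
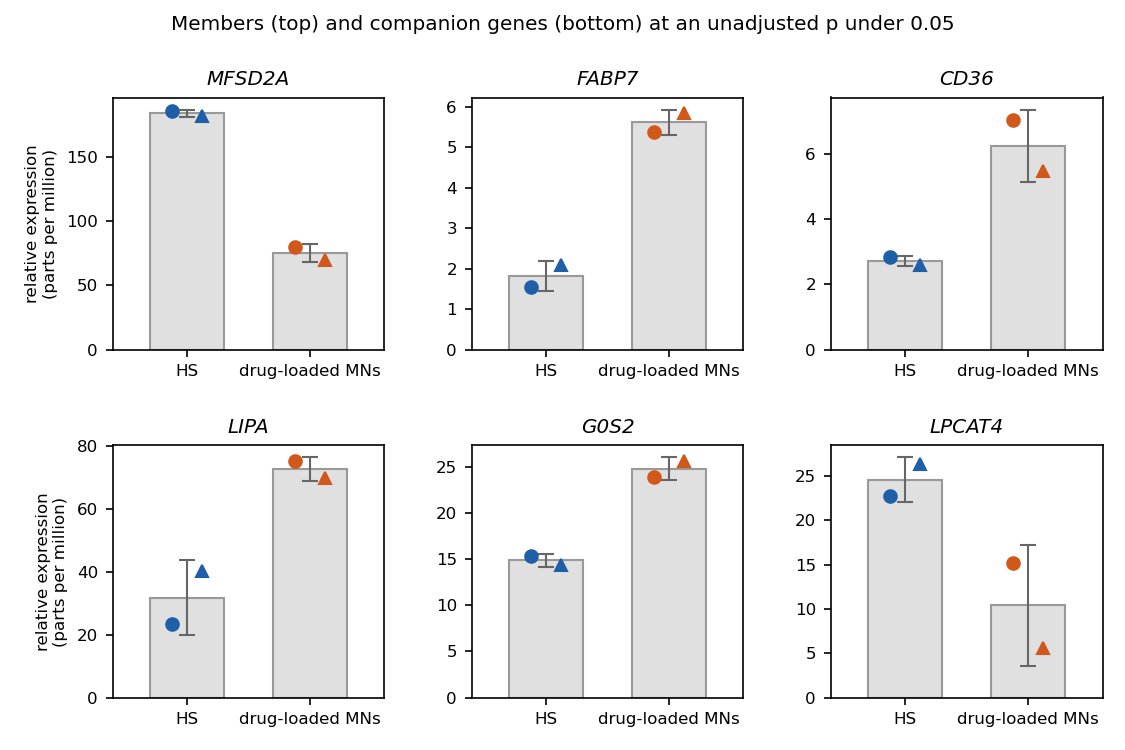
Relative expression in ppm (linear axes from 0) of the 3 members (MFSD2A, FABP7 and CD36) and the 3 other pathway genes (LIPA, G0S2 and LPCAT4) that had an unadjusted p under 0.05 and no overlap between the groups. Bars are group means with SD (n = 2), circles are replicate 1 and triangles replicate 2. MFSD2A and LPCAT4 are lower in both drug-loaded MNs libraries, and the other 4 genes are higher.

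The other transport genes varied more between libraries. FABP4, the binding protein of fat cells, macrophages and capillary endothelium, stood at 23.4 and 34.1 ppm in HS and at 49.2 and 39.5 ppm in drug-loaded MNs. Its groups did not overlap, and its log2 fold change of 0.62 did not pass. LPL, the lipase that frees fatty acids from lipoproteins at the vessel wall, was at 8.58 and 17.1 ppm in HS and at 29.5 and 10.8 ppm in drug-loaded MNs. Its mean difference rested on drug-loaded MNs replicate 1, and the log2 fold change was 0.53 with all libraries and -0.15 without that one. FABP3, the binding protein of heart and muscle, had its highest and its lowest value in the 2 HS libraries, 40.1 and 14.2 ppm.

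FABP5, the epidermal fatty acid-binding protein of keratinocytes, took the largest part of the members' summed ppm, a scale with no known correction for gene length. It was listed at 5514 and 4001 ppm in HS and at 3813 and 4671 ppm in drug-loaded MNs. The highest and the second lowest value were both HS libraries, and the groups overlapped. The log2 fold change was -0.15 (95% interval -0.82 to 0.51, limma unadjusted p 0.602, adjusted p 0.923), and it was 0.077 without HS replicate 1. All 46 members together took 0.686% and 0.545% of the HS libraries and 0.513% and 0.599% of the drug-loaded MNs libraries. Without FABP5 the other 45 took 0.135% and 0.145% of the HS libraries, and 0.132% of each drug-loaded MNs library.

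5 further binding proteins were at or near 0. FABP12 was listed at 0 in every library. FABP1, FABP2 and FABP6, known from liver and gut, were at or below 0.202 ppm throughout. FABP9 was at 0.0163 and 0.0852 ppm in HS and at 3.39 and 0.116 ppm in drug-loaded MNs, so 1 library held nearly all of it. By RefSeq's genes for the rabbit (assembly mOryCun1.1), FABP9, FABP4 and FABP12 follow each other on the chromosome, and FABP5 is separated from them only by PMP2, another gene of the family. How reads shared by such related neighbours were counted was not stated, so the low values of FABP9 and FABP12 are uncertain.

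Acyl-CoA synthetases activate fatty acids and trap them in the cell. ACSL4, which prefers arachidonic acid and related chains, stood at 46.4 and 49.3 ppm in HS and at 63.1 and 55.0 ppm in drug-loaded MNs. Its groups did not overlap, but the log2 fold change of 0.30 did not pass. ACSL3, an enzyme of the endoplasmic reticulum and forming lipid droplets, was at 53.6 and 74.3 ppm in HS and at 64.7 and 50.7 ppm in drug-loaded MNs. The 4 values overlapped. The log2 fold change was -0.14 (SE 0.26, 95% interval -0.75 to 0.47, limma adjusted p 0.928) and turned to 0.095 when HS replicate 2 was left out and to 0.035 when drug-loaded MNs replicate 2 was. ACSL5 had a log2 fold change of 0.01, which was negative with median ratio scaling and with quantile normalization, and ACSL6 was below 0.615 ppm in every library.

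Only 1 member of de novo synthesis was in the table. ACACA, which makes malonyl-CoA, the building block of new fatty acids, was at 33.4 and 40.0 ppm in HS and at 44.5 and 42.3 ppm in drug-loaded MNs. The groups did not overlap, and the log2 fold change was 0.24 (SE 0.23, 95% interval -0.30 to 0.78, limma adjusted p 0.853). FASN, ACACB, SCD and the FADS genes were not analysed here. SCD5, a stearoyl-CoA desaturase that places the first double bond, stood at 3.15 and 3.22 ppm in HS and at 3.24 and 7.70 ppm in drug-loaded MNs. The other 3 libraries were nearly equal, and drug-loaded MNs replicate 2 alone stood out. The log2 fold change was 0.54 (SE 0.39, 95% interval -0.37 to 1.44, limma adjusted p 0.789) with all libraries and 0.020 without that one.

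The elongases add carbons to acyl-CoA, each with its own range of chains. ELOVL4, which makes the ultra-long chains of barrier ceramides, was at 130 and 181 ppm in HS and at 94.2 and 186 ppm in drug-loaded MNs. The drug-loaded MNs libraries held both its lowest and its highest value. Its log2 fold change of -0.21 (SE 0.35, 95% interval -1.02 to 0.60, limma adjusted p 0.913) became 0.28 when drug-loaded MNs replicate 1 was left out and 0.026 when HS replicate 2 was. ELOVL5, which elongates polyunsaturated chains, stood at 17.3 and 24.03 ppm in HS and at 34.9 and 26.1 ppm in drug-loaded MNs, without overlap, with a log2 fold change of 0.55 that did not pass.

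ELOVL2, which acts after ELOVL5 on longer polyunsaturated chains, was listed at 0.958 and 0.578 ppm in HS and at 2.85 and 1.11 ppm in drug-loaded MNs. ELOVL5 and ELOVL2 were the only tested elongases whose groups did not overlap. ELOVL2 was tested only through its drug-loaded MNs values, so its lack of overlap adds nothing to that of ELOVL5. ELOVL1, ELOVL6 and ELOVL7, which act mainly on saturated and monounsaturated chains, had log2 fold changes of -0.05, -0.13 and -0.04, and their groups overlapped. ELOVL3, the elongase known from sebaceous glands and brown fat, was at 0.670 and 0.0710 ppm in HS and at 1.06 and 0.200 ppm in drug-loaded MNs. Over the 6 tested elongases the median log2 fold change was -0.045, and it was -0.18 with median ratio scaling but 0.076 when HS replicate 2 was left out.

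Of 6 tested glycerolipid genes, 4 had log2 fold changes above 0, and none passed. LPIN2, a phosphatidate phosphatase that makes diacylglycerol, was at 29.9 and 26.7 ppm in HS and at 37.1 and 42.0 ppm in drug-loaded MNs. Its groups did not overlap, with a log2 fold change of 0.47, the largest of these genes. GPAT3, which places the first acyl chain on glycerol-phosphate, was at 4.52 and 5.51 ppm in HS and at 7.40 and 6.89 ppm in drug-loaded MNs. AGPAT1, which adds the next chain, was at 16.2 and 13.5 ppm against 18.1 and 17.3 ppm. Both were free of overlap, with log2 fold changes of 0.44 and 0.25.

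DGAT2 completes triacylglycerol. It stood at 55.7 and 84.6 ppm in HS and at 44.7 and 71.7 ppm in drug-loaded MNs, and the groups overlapped. The log2 fold change was -0.27 (SE 0.32, 95% interval -1.01 to 0.46, limma adjusted p 0.878), and it was 0.061 when drug-loaded MNs replicate 1 was left out and 0.024 when HS replicate 2 was. LPIN1 and AGPAT4 had log2 fold changes of -0.21 and 0.37 with overlap, and GPAT2 and DGAT2L6 were below 0.564 ppm in every library. PLIN2 coats lipid droplets in most cell types and was the only droplet gene in the table that the rule took. It was at 59.6 and 51.9 ppm in HS and at 68.8 and 76.5 ppm in drug-loaded MNs, free of overlap, with a log2 fold change of 0.38 (SE 0.22, 95% interval -0.14 to 0.90, limma unadjusted p 0.132, adjusted p 0.739). The other PLIN genes, LIPE, PNPLA2 and PNPLA3 were not analysed here.

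Within mitochondrial beta-oxidation the members did not move together. HADH, the dehydrogenase for short and medium chains, stood at 100.3 and 103 ppm in HS and at 90.7 and 69.5 ppm in drug-loaded MNs. Its log2 fold change was -0.36 (SE 0.23, 95% interval -0.90 to 0.19, limma unadjusted p 0.166, adjusted p 0.760). The medium-chain dehydrogenase ACADM was at 82.0 and 87.5 ppm in HS and at 75.1 and 59.5 ppm in drug-loaded MNs, and the very-long-chain dehydrogenase ACADVL at 85.1 and 88.7 ppm against 60.7 and 81.6 ppm. In all 3 genes the HS replicates lay close together, both drug-loaded MNs libraries were lower, and the direction held in all 14 alternatives. Under median ratio scaling HADH was at -0.50 and ACADM at -0.48, with limma unadjusted p-values of 0.0473 and 0.0488 and adjusted p-values of 0.598 and 0.602.

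The remaining oxidation enzymes lay on the other side or near 0. HADHA, the large subunit of the trifunctional protein that takes over long chains, was at 76.5 and 85.4 ppm in HS and at 82.2 and 82.0 ppm in drug-loaded MNs, with a log2 fold change of 0.02 that was negative with median ratio scaling and with quantile normalization. CPT2, which returns acyl groups to CoA inside mitochondria, was at 8.51 and 7.14 ppm in HS and at 9.47 and 8.98 ppm in drug-loaded MNs. Its groups did not overlap, and its log2 fold change of 0.22 was -0.02 under quantile normalization. ACADL, for long chains, ranged from 39.0 to 79.6 ppm, both ends being drug-loaded MNs libraries. ACADS, ACAD9, ACAD10 and ACAD11 had log2 fold changes between 0.10 and 0.37 with overlap, and those of ACAD10 and ACAD11 were negative with quantile normalization. Over the 10 genes the median was 0.12, the same to 2 decimals as that of all tested genes. It was -0.0048 with median ratio scaling, -0.057 with quantile normalization and -0.056 without drug-loaded MNs replicate 1.

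Of the peroxisomal oxidases, ACOX2, which acts on branched chains and bile acid precursors, was listed at 1.97 and 1.05 ppm in HS and at 1.02 and 0.530 ppm in drug-loaded MNs. The groups did not overlap, but the lower HS library and the higher drug-loaded MNs library were nearly equal. The log2 fold change was -0.49 (SE 0.34, 95% interval -1.29 to 0.31, limma adjusted p 0.777). ACOXL was listed at 0 in every library.

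**Figure D4:**
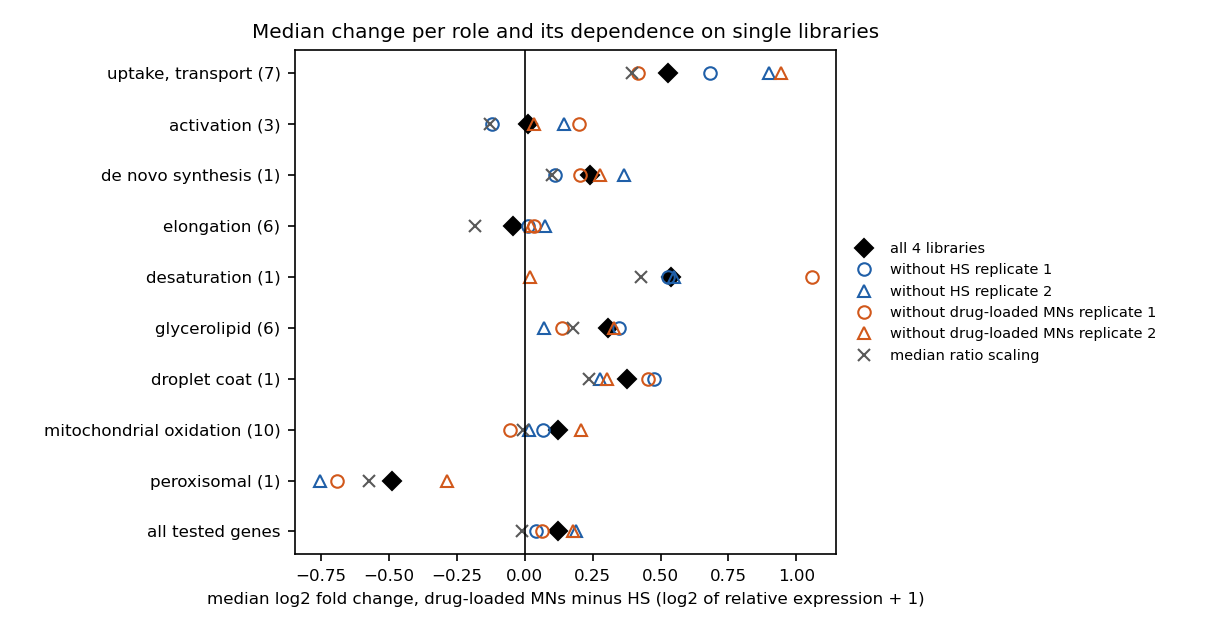
Median log2 fold change of drug-loaded MNs minus HS for the tested members of each role (number of genes in brackets) and for all tested genes. Diamonds use all 4 libraries, open symbols leave out 1 library each, and crosses use median ratio scaling. Across these settings the medians of activation, elongation and mitochondrial oxidation lie on both sides of 0, as does that of all tested genes, and the other roles keep their side.

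Single libraries decided many of the small differences. The difference between the group means was larger than the gap between the replicates of either group in 10 of the 36 members (27.8%), against 24.5% of all tested genes. In 16 members the direction turned when 1 of the 4 libraries was left out, among them FABP5, LPL, FABP3, ACSL3, DGAT2, ACADL and 4 of the 6 elongases. Drug-loaded MNs replicate 1 held the highest value in 16 of the 36 members, where it did so for 40.1% of all tested genes, and HS replicate 1 the lowest in 12, where it did so for 44.5%. Of the 36 directions, 31 held under each of the 3 other scalings.

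Other genes of the pathway were taken from a list of 125, of which 81 were in the table and 74 were tested. 0 of these 74 passed an adjusted p of 0.05 in limma, and at an unadjusted p under 0.05 LIPA and G0S2 were higher and LPCAT4 was lower. Of all tested genes, 0.0428% passed the former and 8.65% the latter. Over the 74 the log2 fold change had a median of 0.067. LIPA, the lysosomal lipase that frees fatty acids from engulfed lipoproteins, stood at 23.3 and 40.1 ppm in HS and at 75.2 and 69.9 ppm in drug-loaded MNs. Both drug-loaded MNs libraries were well above HS, and the log2 fold change was 1.22 (SE 0.30, limma unadjusted p 0.0039, adjusted p 0.316). Macrophage markers, given above, were higher in the same libraries, and their part in the LIPA values was not tested.

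G0S2, an inhibitor of the droplet lipase PNPLA2, was at 15.4 and 14.4 ppm in HS and at 23.95 and 25.7 ppm in drug-loaded MNs, and its log2 fold change was 0.70 (SE 0.24, limma unadjusted p 0.0224, adjusted p 0.447). LPCAT4, which returns acyl chains to lysophospholipids, was at 22.8 and 26.4 ppm in HS and at 15.2 and 5.59 ppm in drug-loaded MNs. Its log2 fold change of -1.30 (SE 0.42, limma unadjusted p 0.0163, adjusted p 0.420) ranged from -1.95 to -0.65 with 1 library left out, and drug-loaded MNs replicate 2 held the lowest value. Without drug-loaded MNs replicate 1 the limma adjusted p was 0.00994, but that fit has 1 library in the treated arm, which is assumed to vary like the HS libraries. The groups did not overlap in LIPA, G0S2 or LPCAT4, which was a condition for naming them, and 37.8% of all tested genes did not overlap.

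The transcription factors and sensors that govern the pathway held no gene with a small p. Of 14 tested, 0 had an unadjusted p under 0.05 in limma, where 8.65% of all tested genes did, and log2 fold changes ran from -0.27 in SCAP, the escort of the sterol-regulated factors, to 0.37 in PPARG, the master factor of fat cells and sebocytes. PPARG was listed at 4.68 and 3.72 ppm in HS and at 8.80 and 3.59 ppm in drug-loaded MNs, so drug-loaded MNs replicate 1 stood apart. A list headed substrate supply for synthesis held 9 tested genes: ACLY, ACSS2, CS, IDH1, ME1, ME2, MID1IP1, OXSM and THRSP. None of these and none of the 19 other tested beta-oxidation genes had an unadjusted p under 0.05 in limma. The medians of the 2 lists were 0.27 and 0.072 on the log2 scale. The 12 further uptake and acyl-CoA genes tested gave none either. In lists this short, a count of 0 is not a result about the list when read against that share.

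Of the markers of fat cells, 6 were in the table, and 0 of these were members. CIDEA, a droplet protein, was at 7.63 and 4.52 ppm in HS and at 16.9 and 7.39 ppm in drug-loaded MNs, with overlap and a log2 fold change of 0.83, and THRSP had a log2 fold change of -0.24 with overlap. LEP was listed at 0 in every library, GPD1 was at most 1.11 ppm and TRARG1 at most 0.486 ppm. ADIPOQ, the adiponectin gene, was at 352 and 412 ppm in HS and at 583 and 443 ppm in drug-loaded MNs. Its groups did not overlap, and its log2 fold change of 0.41 did not pass. The part of fat cells in the members' values was not tested.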

How the data were processed

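Libraries were made by the authors with a 10x Genomics kit, and Cell Ranger (2.1.1 in the submitters' processing notes) and Seurat were used. Those notes name the mouse build mm10, although the gene identifiers are rabbit Ensembl ones. The methods mention a correction across samples, and whether these values passed through it was not stated.

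The deposited values were treated as a signal, since the authors had scaled each library to a total of 10000. They were named FPKM, but no length correction could be assumed, so summed ppm and the choice of the highest member of a role rest on a scale that may depend on gene length. Reads per value could not be recovered: 18.6% to 21.7% of low values lay within 0.1 of whole multiples of the library's smallest value above 0. Depth is therefore unknown and no counting interval is given. From 11844 to 12059 genes were above 0 per library.

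Values were rescaled to a total of 1000000. Genes with a mean of at least 1 ppm were fitted as log2(ppm + 1) with limma 3.58.1 in R 4.3.3 (eBayes with a variance trend, two-sided, 7.44 total degrees of freedom). The script was tested on simulated data. An exact permutation test of 2 against 2 libraries cannot go below 0.333. Groups and replicate numbers came from the sample titles.

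Full statistics are given for members at an adjusted p under 0.05, for members at an unadjusted p under 0.05 without overlap, for the member with the highest mean in each role, and for up to 5 other pathway genes in each direction. The p-values of HADH and ACADM with median ratio scaling were added after their values were seen. The members and lists were chosen with earlier results of these data known. Of 53 genes found by the rule, 52 matched 1 RefSeq gene. Other scalings, pseudocounts, filters, variance priors, a replicate block and leaving out each library were tried as alternatives. One gene of the cell type marker lists is not reported here and was left out of its list.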

Additional observations from a re-analysis of the deposited data

How the results depend on the processing

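With 4 libraries, few calls were stable. The 4 genes of the whole table past an adjusted p of 0.05 became 0 with median ratio scaling, quantile normalization, a total without abundant genes, a pseudocount of 5 or no filter, 1 without a variance trend, and with 1 library left out between 0 (HS replicate 1 left out) and 75 (drug-loaded MNs replicate 2), the value being 48 without drug-loaded MNs replicate 1. The count of members past it, 0, was between 0 and 1 with 1 library left out, the 1 being FABP9 without drug-loaded MNs replicate 2. FABP9 passed the filter there through the only library left in its group, where it is high, so that call was fixed by the filter. Fits that leave out a library assume that the lone sample varies like the other group. Members at an unadjusted p under 0.05, 3 in number, were 5 with median ratio scaling, which added ACADM and HADH, and 1 with a minimum mean of 5 ppm, a filter that FABP7 and CD36 did not pass. They were between 3 and 6 (without drug-loaded MNs replicate 2) with 1 library left out, and 5 without HS replicate 2. The 3 other pathway genes became 7 with no filter and 5 with a robust prior, and lay between 2 (without drug-loaded MNs replicate 1) and 10 (without HS replicate 2) with 1 library left out. The members' median log2 fold change of 0.19 was 0.045 with median ratio scaling, 0.019 with quantile normalization and between 0.061 (without drug-loaded MNs replicate 1) and 0.22 with 1 library left out, with 0.10 without HS replicate 2. With 1 library left out, FABP5 lay between -0.39 and 0.077, ACSL3 between -0.37 and 0.095, ELOVL4 between -0.70 and 0.28, and DGAT2 between -0.61 and 0.061, each turning sign. The cause of these shifts was not tested. Of all calls at an unadjusted p under 0.05, 83.9% were higher in drug-loaded MNs, against 64.1% with median ratio scaling and 58.9% with quantile normalization.

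Nothing in the labels said that replicate numbers pair the libraries. The deviations of same-numbered libraries from their group means correlated at 0.22 across genes. With 2 libraries per group, the deviations of replicate 2 mirror those of replicate 1, so the 2 pairs give the same value. With the replicate number as a block, 241 genes of the table passed an adjusted p of 0.05 in limma, among them 2 members, MFSD2A (adjusted p 0.000819) and FABP7 (adjusted p 0.0451), and 2 of the other pathway genes, LIPA (adjusted p 0.00632) and LPCAT4 (adjusted p 0.0182). Of the other pathway genes 7 had an unadjusted p under 0.05 in that limma fit, where 12.1% of all tested genes did. The block leaves fewer residual degrees of freedom than the 2 of the main fit, so its variances rest more on those of other genes. Its smaller p-values do not make it the stronger test.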

Other observations

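Some low members had most of their signal in 1 library, a set chosen after the values were seen. For FABP1 and FABP2 that library was HS replicate 1, at 0.0291 and 0.202 ppm, and for FABP6 it was HS replicate 2, at 0.135 ppm. FABP9, DGAT2L6 and ELOVL3 were highest in drug-loaded MNs replicate 1, which held the highest value in 40.1% of all tested genes. FABP9, at 3.39 ppm in drug-loaded MNs replicate 1, was at or below 0.116 ppm in the other 3 libraries. DGAT2L6, a relative of the wax synthases, was at 0.563 ppm there and at or below 0.234 ppm elsewhere. ELOVL3 was at 1.06 ppm there and at or below 0.670 ppm elsewhere. Among the sebocyte markers, the wax synthase AWAT1 was at 1.38 ppm in that library and at or below 0.153 ppm in the others, and FAR2, which makes fatty alcohols, was at 12.2 ppm there and between 2.77 and 4.11 ppm in the others. SOAT1, which esterifies cholesterol, was at 31.9 ppm there and between 10.3 and 15.4 ppm in the others. AWAT2, ELOVL5 and MGST1 were also highest in drug-loaded MNs replicate 1, but less apart, at 1.16, 34.9 and 70.0 ppm. Their next highest values were 0.834, 26.1 and 65.3 ppm. MLANA and MC5R did not share this pattern. MLANA was highest in HS replicate 1, at 61.0 ppm against 51.7 ppm in drug-loaded MNs replicate 1, and MC5R was highest in HS replicate 2, at 0.089 ppm. The 9 sebocyte markers in the table, ELOVL3 and ELOVL5 included, summed to 163 and 112 ppm in HS and to 204 and 121 ppm in drug-loaded MNs. Their part in the members' values was not tested.

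The 6 tested G-patch genes, which the symbol rule took by spelling alone, had log2 fold changes between 0.049 and 0.28, with a median of 0.10 that was -0.036 with median ratio scaling.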
